A study of Mus musculus with 10 samples.

Results

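The receptors described here are 10 genes, listed by name, through which myeloid progenitors receive cytokines: Csf1r, Csf2ra, Csf2rb, Csf2rb2, Csf3r, Il3ra, Kit, Flt3, Il6ra, and Ifngr1. They are 10 of the 51717 annotated genes to which reads were summed, and all 10 were among the 12381 genes with enough reads to test. RNA was sequenced from granulocyte-macrophage progenitors (GMPs), sorted as CD45.2+ donor cells from the bone marrow of chimeras. In these, marrow of the donor genotype had been placed in irradiated CD45.1 hosts. The paper describes mixing such marrow with WT CD45.1 marrow, except in full chimeras, and gives no mixing ratio for the sequenced samples. Full Mpc2 KO chimeras did not survive tamoxifen feeding in the paper. The 5 WT samples came from donors of genotype ROSA26 CreER+/-, and the 5 recent Mpc2 KO samples from donors that carried the floxed Mpc2 allele on both chromosomes together with ROSA26 CreER+/-. All were male, of strain C57Bl6/N, and fed tamoxifen chow for 2 wk before they were taken, so that CreER and tamoxifen were shared by both groups. CreER is made in all tissues from the ROSA26 locus, so the deletion was not limited to GMPs among donor cells. Each WT sample was from 1 mouse, whereas GMPs of 2 mice were combined for each KO sample, so the spread of the KO group is a spread between pairs of mice.

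Mpc2 encodes a subunit of the carrier that brings pyruvate into mitochondria. It was measured at 60.9 to 117 normalized CPM (a count scaled to library size) in WT samples and at 17.1 to 43.9 CPM in KO samples, so the groups did not overlap (log2 fold change -1.46, SE 0.24, adjusted p = 0.0156, edgeR quasi-likelihood test). Samples held 14033776 to 19745405 estimated reads. The GMP markers, which include the granule genes Mpo and Elane, summed to 90409 to 127747 CPM in WT samples and to 54011 to 92362 CPM in KO samples, and 8 of 10 were lower in the KO without passing the test (2 passed with DESeq2, Mpo and Fcgr3). Of 9 macrophage markers tested, 8 were higher in the KO and 3 passed the test (C1qa, C1qb, and C1qc; with DESeq2 also Cd5l and Fcna), with sums of 18.4 to 39.4 CPM in WT and 44.0 to 80.1 CPM in KO samples. Erythroid markers, all 6 of which were higher in the KO without passing, summed to 11.2 to 31.7 CPM in WT and to 17.1 to 133 CPM in KO samples. Of 7 neutrophil markers tested, 5 were higher and none passed, with sums of 119 to 427 CPM in WT and 113 to 731 CPM in KO samples. Of 6 mast cell and basophil markers, 4 were higher and none passed (1, Mcpt8, with DESeq2). Of 3 eosinophil markers, the 2 tested, Prg2 and Epx, were lower and none passed. The 3 summed to 15.3 to 227 CPM in WT and 12.3 to 54.8 CPM in KO samples. The lymphoid genes Il7r, Rag1, and Ebf1 had at most 3 reads in any sample.

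Cytokine receptors of this kind work in 2 ways. Csf1r, Kit, and Flt3 are receptor tyrosine kinases, each a single chain that pairs with itself when its ligand binds and then phosphorylates its own tail. The others have no kinase of their own and rely on JAK kinases bound to their tails: Csf2ra and Il3ra are alpha chains that bind GM-CSF and IL-3 and signal through the shared beta chain Csf2rb, Csf2rb2 is a second, IL-3 specific beta chain of the mouse, Csf3r pairs with itself to bind G-CSF, Il6ra signals through Il6st (gp130), and Ifngr1 through Ifngr2. In the marrow, Flt3 and Kit mark early progenitors, Csf1r and Csf3r support the monocyte and the granulocyte branch, and GM-CSF and IL-3 act on both.

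Some of these receptors are near copies or are made in several forms, and this decides how well reads can be assigned. Csf2rb and Csf2rb2 lie next to each other on chromosome 15 of GRCm38, at chr15:78325752-78353847 on the plus strand and chr15:78282507-78305721 on the minus strand. Their coding sequences of 2688 and 2634 bases in GENCODE M21 aligned over 2628 bases at 95.2% identity, with an identical run of 242 bases, within which a read cannot be told apart. The most different stretch of 60 aligned bases is given here (coding bases 304 to 363 of Csf2rb-201 and 307 to 366 of Csf2rb2-201), with the 13 differences in capitals.
Csf2rb-201: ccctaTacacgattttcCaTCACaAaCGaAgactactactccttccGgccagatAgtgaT
Csf2rb2-201: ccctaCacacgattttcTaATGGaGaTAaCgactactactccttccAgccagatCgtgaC

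Kit (chr5:75574916-75656722, plus strand) has 2 annotated coding forms with at least 5% of its TPM, whose coding sequences differ by 12 bases at an exon end, chr5:75639147-75639158 of GRCm38, in the part that encodes the extracellular stretch next to the membrane. The junction is shown for both, with the 12 extra bases of Kit-201 in capitals as these are the forms whose shares were compared between groups.
Kit-201: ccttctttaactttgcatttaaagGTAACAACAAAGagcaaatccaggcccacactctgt
Kit-204: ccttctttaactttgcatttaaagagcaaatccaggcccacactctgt

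In WT GMPs the receptors ranked from near the bottom to the upper part of the genes tested, with the lowest, Csf2rb2, above 2.66% of them. The ranks are on the TPM scale, which is corrected for transcript length and allows genes to be compared. Ifngr1, the chain that binds interferon gamma, was the most abundant at 152 TPM ± 10.8 (SD, n = 5), above 92.5% of the genes tested. Csf2ra followed at 49.2 TPM ± 4.44 and Csf3r at 19.3 TPM ± 2.29, and each of these levels exceeded the next in 5 of 5 samples. Csf2rb (8.22 TPM ± 1.31), Kit (6.60 TPM ± 1.01), Il3ra (6.10 TPM ± 1.47), and Csf1r (4.86 TPM ± 0.970) formed a middle group in which the range of each overlapped that of the next. Flt3 (2.82 TPM ± 0.624), Il6ra (1.76 TPM ± 0.325), and Csf2rb2 (0.196 TPM ± 0.0576) closed the order, and their ranges did not overlap. Thus the transcripts of the GM-CSF alpha chain gene, all forms summed, were at 5.44 to 7.15 times the TPM of Csf2rb in every WT sample. Csf2rb2 was at 0.0170 to 0.0329 of Csf2rb. Csf2rb2 rested on only 14 to 26 reads a sample. In KO samples the order was the same except that Flt3, at 5.88 TPM ± 2.17, moved from the eighth to the sixth place, beside Il3ra at 5.58 TPM ± 0.844.

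Next, the levels in recent KO were compared with those in WT, which asks whether GMPs that have just lost Mpc2 carry other receptor transcripts. None of the 10 receptors passed the threshold of adjusted p 0.05 (edgeR quasi-likelihood test, Benjamini-Hochberg over all genes tested), against 41 of all 12381 genes (0.331%). DESeq2 passed 1 receptor, Flt3, against 1.09% of the genes that it tested. Before adjustment, 4 receptors had p under 0.05, of which Flt3 was higher and Csf1r, Csf2ra, and Il6ra were lower in the KO, against 1268 of all genes (10.2%). In all, 4 receptors were higher and 6 lower, with a median log2 fold change of -0.14, compared to -0.0018 over all genes tested. In bulk samples, more cells with a transcript and more transcript per cell cannot be told apart. Where the interval of a difference is given below, it shows what size the data leave possible, since a p above the threshold does not show equal levels.

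**Figure D1:**
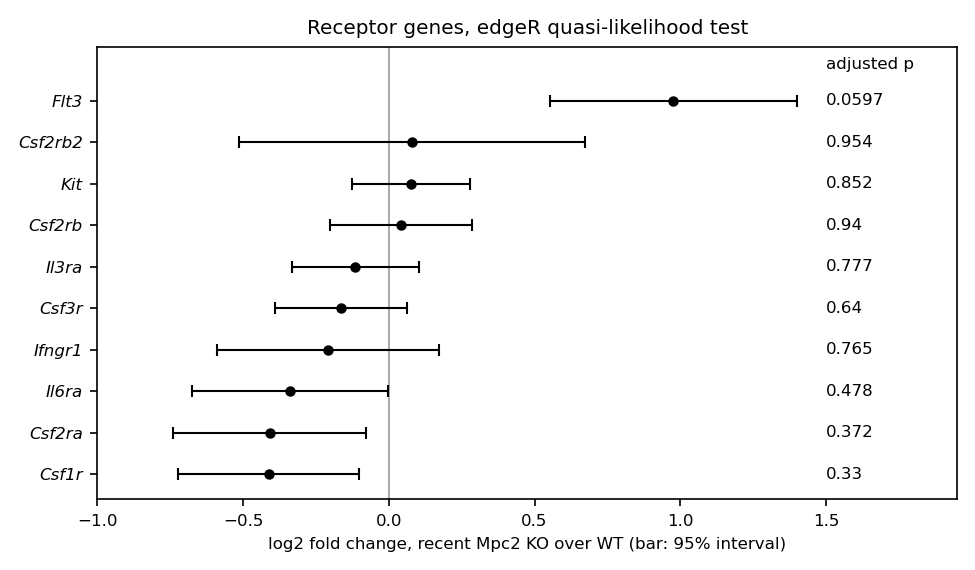
Log2 fold change of each receptor in recent Mpc2 KO over WT GMPs (x axis; point and 95% interval), with the p adjusted over all genes tested at the right. Flt3 lies at 0.98 with an interval from 0.55 to 1.40, Csf1r, Csf2ra, and Il6ra have intervals below 0, and those of the other 6 receptors include 0.

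Flt3, the receptor for Flt3 ligand, is a tyrosine kinase of multipotent and lymphoid-primed progenitors and of dendritic cell precursors (chr5:147330741-147400489, minus strand). It was measured at 15.2, 10.2, 11.5, 11.4, and 14.3 CPM in WT samples 1 to 5 and at 18.2, 37.8, 28.9, 20.5, and 18.3 CPM in KO samples 1 to 5. Every KO sample was above every WT sample, as was so for 138 of all genes tested (1.11%). KO samples 2 and 3 were well above the other 3 KO samples, which lay closer to WT. The means were 12.5 ± 2.13 and 24.7 ± 8.51 CPM (SD, n = 5 each), a fold of 1.97 with a 95% interval of 1.47 to 2.64 (log2 fold change 0.98, SE 0.20). Its adjusted p was 0.0597 from an unadjusted p of 2.32e-04, which ranked 48 among all genes, and 178 genes had a larger fold change in either direction. The exact two-sided permutation test of its CPM gave p = 0.00794, the smallest that 5 samples against 5 allow.

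Whether Flt3 passed the threshold depended on the setting. Its adjusted p was 2.49e-04 with DESeq2, 4.67e-05 with no filter on low counts (where 0.738% of genes passed), 0.0438 with library size alone as the scaling (0.372% of genes), and 0.0496 with upper quartile normalization (0.347%). It was above the threshold in the 7 other settings, with 0.240 as the highest. Without KO replicate 2, the sample with the most Flt3, the log2 fold change was 0.78 and the adjusted p 0.0455. Without KO replicate 1 they were 1.07 and 0.0488, and without any 1 of the other 8 samples the adjusted p was 0.0528 to 0.173. The log2 fold change stayed between 0.78 and 1.07 over all of these fits.

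**Figure D2:**
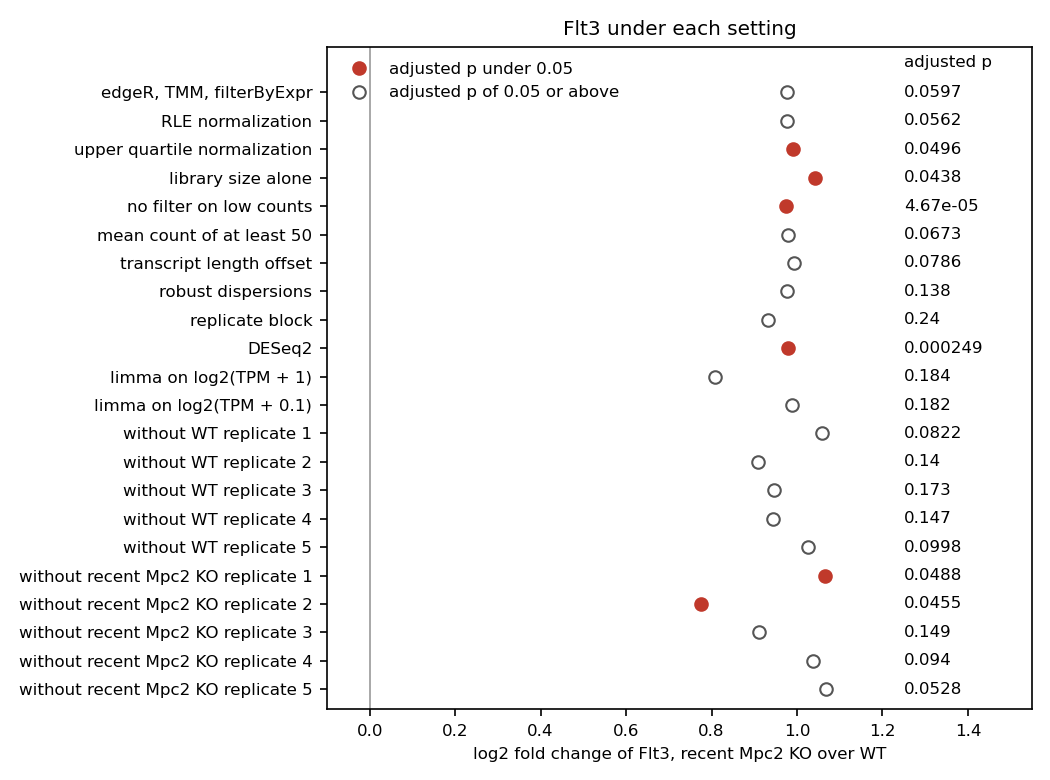
Log2 fold change of Flt3 in recent Mpc2 KO over WT (x axis) in the fit reported, in 11 other settings, and without each sample in turn; filled points have an adjusted p under 0.05, and the adjusted p is printed at the right. The fold change stays between 0.78 and 1.07, while the adjusted p crosses the threshold in 6 of the 21 alternatives.

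The sort itself used Flt3 and Kit: in the study's gating, GMPs were c-kit+ cells with low Flk2, which is another name for the Flt3 protein, so the transcript was compared among cells chosen for little of the protein. Markers of stem and multipotent, dendritic, and early lymphoid cells were read beside Flt3. The paper sets stem cells apart from Flk2+ multipotent progenitors, and the first of these lists does not separate them. The 5 stem and multipotent markers (Procr, Slamf1, Hlf, Mecom, and Ly6a) were all higher in the KO, none passed, and their sums overlapped, at 19.996 to 27.2 CPM in WT and 17.7 to 34.1 CPM in KO samples. KO replicate 2, which had the most Flt3, had the lowest of these sums. Of the 3 dendritic markers tested, Cd74 was at 2.84 CPM in WT and 6.08 CPM in KO (adjusted p = 0.331), H2-Aa at 2.91 and 3.97 CPM (adjusted p = 0.640), and Xcr1 at 0.861 and 0.510 CPM (adjusted p = 0.698), and the summed list was at 4.66 to 10.5 CPM in WT and 7.98 to 13.1 CPM in KO samples. Siglech had at most 4 reads in any sample, and Cd209a and Batf3 had at most 2. Dntt, an enzyme of early lymphoid cells, had at most 27 reads in any sample and was not tested, with levels of 0 to 0.239 CPM in WT and 0 to 1.64 CPM in KO samples and means of 0.10 and 0.70 CPM. The part of these cell types in the Flt3 values was not tested.

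Kit, the receptor for stem cell factor, is the other kinase of early progenitors. It was at 40.2, 38.8, 37.2, 37.7, and 37.9 CPM in WT samples and at 31.5, 43.6, 47.7, 39.6, and 39.6 CPM in KO samples. The KO values surrounded the narrow WT range (log2 fold change 0.08, 95% interval -0.13 to 0.28, adjusted p = 0.852), and the interval leaves out a change of 2-fold. The ratio of Kit to Flt3 TPM within a sample, which does not depend on scaling between samples, was 1.97, 3.50, 2.36, 2.29, and 1.97 in WT and 1.51, 0.891, 1.32, 1.66, and 1.71 in KO samples. All KO ratios were below all WT ratios, and the mean log2 ratio differed by -0.77 (exact permutation p = 0.00794, adjusted p = 0.0556 over the 7 ratios tested). This is the lowest adjusted p that a single ratio can reach with 5 samples against 5, so the design did not allow it alone to pass the threshold. Before adjustment, 2 of the 7 ratios had an exact p under 0.05, this one, which contains the Flt3 difference given above, and that of Csf2ra to Csf2rb.

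**Figure D3:**
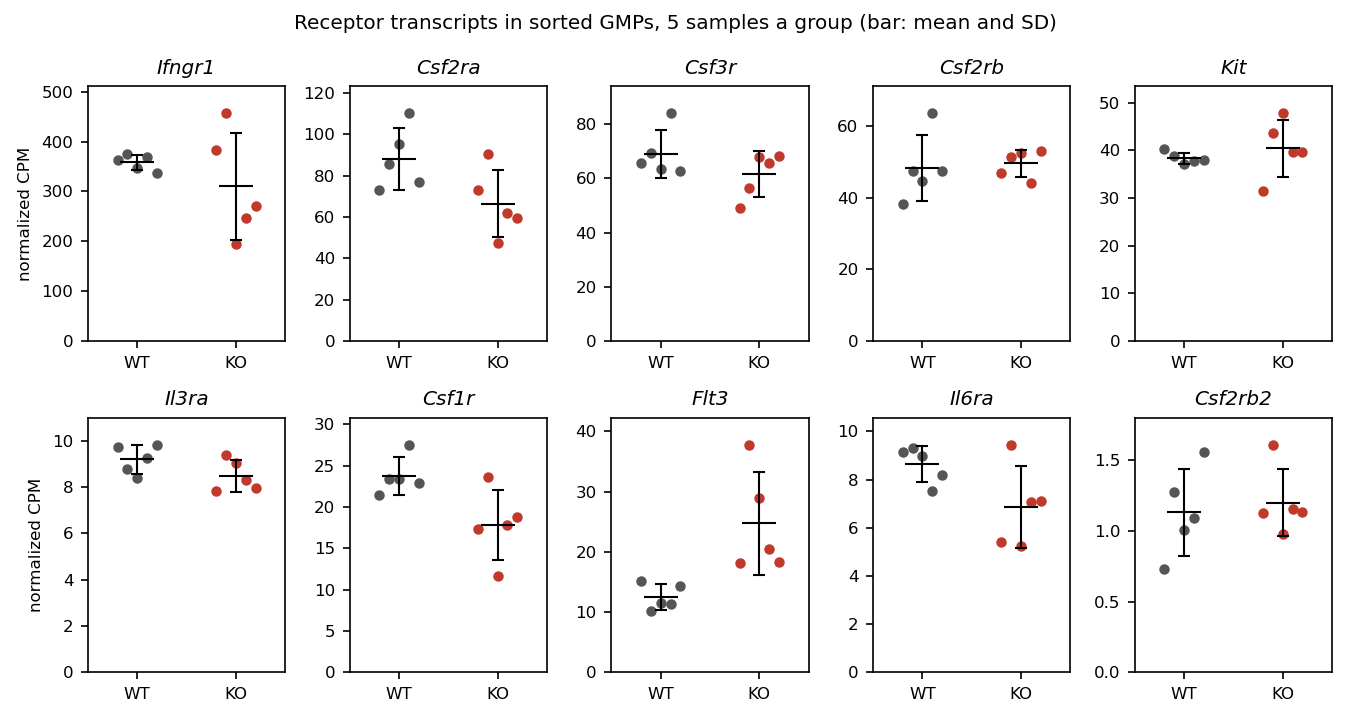
Normalized CPM of the 10 receptors (y axes, each from 0) in 5 WT and 5 recent Mpc2 KO samples, in the order of their TPM in WT; points are samples, and bars give the mean and SD. Flt3 is the only receptor whose groups do not overlap, and Ifngr1 has a much wider spread in KO than in WT samples.

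Csf1r, the kinase receptor for M-CSF and IL-34 on the monocyte and macrophage branch (chromosome 18), was at 21.4, 23.4, 23.3, 27.5, and 22.9 CPM in WT and at 17.3, 23.6, 11.7, 17.8, and 18.8 CPM in KO samples. In the KO, 4 of 5 samples were below every WT sample, and replicate 2 was within the WT range. The KO mean was 0.751 of the WT mean (log2 fold change -0.41, SE 0.14, 95% interval -0.72 to -0.10, adjusted p = 0.330, edgeR). The markers of both branches known for Csf1r were read beside it: all 7 monocyte progenitor markers were lower in the KO (median log2 fold change -0.55, none past the test), with sums of 3051 to 4359 CPM in WT and 1402 to 4062 CPM in KO samples, and the macrophage markers were higher, as given above. Their part in the Csf1r values was not tested.

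Csf2ra, the alpha chain for GM-CSF (chr19:61223957-61228429, minus strand), was at 72.9, 85.5, 95.2, 110.1, and 77.0 CPM in WT and at 73.1, 90.4, 47.2, 61.9, and 59.6 CPM in KO samples. In the KO, 3 of 5 samples were below every WT sample, and the mean was 0.753 of that in WT (log2 fold change -0.41, SE 0.15, 95% interval -0.74 to -0.08, adjusted p = 0.372). Its partner, the common beta chain Csf2rb, was at 38.4 to 63.7 CPM in WT and 44.3 to 53.0 CPM in KO samples, with full overlap (log2 fold change 0.04, 95% interval -0.20 to 0.28, adjusted p = 0.940). Accordingly, the ratio of Csf2ra to Csf2rb TPM was 5.44 to 7.15 in WT and 2.73 to 5.49 in KO samples, with only KO replicate 2 inside the WT range. The mean log2 ratio differed by -0.60 (exact permutation p = 0.0238, adjusted p = 0.0833 over 7 ratios). This ratio sums all forms of Csf2ra, among them Csf2ra-204, which is not annotated as coding. The coding form Csf2ra-201 alone was at 34.3, 38.7, 40.4, 46.9, and 21.5 TPM in WT samples 1 to 5. It was at 32.9, 45.1, 22.8, 30.4, and 29.4 TPM in KO samples 1 to 5. The groups overlapped through WT replicate 5, which was below every KO sample, and through KO replicate 2.

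For the rest of the shared-chain family, the groups overlapped. Il3ra, the alpha chain for IL-3 (chr14:14346275-14356011, plus strand), was at 8.37 to 9.82 CPM in WT and 7.80 to 9.37 CPM in KO samples (log2 fold change -0.11, 95% interval -0.33 to 0.10, adjusted p = 0.777). Csf2rb2 was at 0.734 to 1.56 CPM in WT and 0.977 to 1.61 CPM in KO samples, where so few reads leave an interval of -0.51 to 0.67 on the log2 scale (adjusted p = 0.954). When the reads of Csf2rb and Csf2rb2 were summed, so that reads shared by both could not matter, the log2 fold change was 0.04. The ratios of Il3ra and of Csf2rb2 to Csf2rb had adjusted p-values of 0.486 and 0.944.

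Csf3r, the G-CSF receptor of the granulocyte branch (chr4:126024550-126044440, plus strand), was at 65.8, 69.5, 63.3, 84.0, and 62.7 CPM in WT and at 48.9, 56.5, 67.9, 65.8, and 68.3 CPM in KO samples. KO samples 1 and 2 were below WT and the others within it (log2 fold change -0.16, 95% interval -0.39 to 0.06, adjusted p = 0.640). The ratio of Csf3r to Csf1r TPM, the granulocyte over the monocyte receptor, was 2.98 to 5.07 in WT and 3.39 to 9.32 in KO samples (log2 difference 0.41, exact permutation p = 0.183, adjusted p = 0.426).

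Il6ra, the IL-6 binding chain (chr3:89864059-89913196, minus strand), was at 9.15, 9.32, 8.97, 7.54, and 8.20 CPM in WT and at 5.41, 9.44, 5.23, 7.06, and 7.11 CPM in KO samples. In the KO, 4 of 5 samples were below all of WT, and replicate 2 was above all of it (log2 fold change -0.34, SE 0.16, 95% interval -0.68 to -0.0042, adjusted p = 0.478). Its signaling partner Il6st was at 6.63 ± 1.60 CPM in WT and 5.15 ± 1.00 CPM in KO (SD, n = 5 each; log2 fold change -0.36, adjusted p = 0.539), and the ratio of their TPM was 1.19 to 3.25 in WT and 1.62 to 3.96 in KO samples (adjusted p = 0.944).

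Ifngr1 (chr10:19591949-19610229, plus strand) differed more in spread than in mean. It was at 362, 375, 348, 368, and 338 CPM in WT and at 383, 457, 194, 246, and 271 CPM in KO samples. Of the KO samples, 2 were above and 3 below all WT samples, so that its coefficient of variation was 34.6% in KO and 4.28% in WT. The log2 fold change was -0.21 with a 95% interval of -0.59 to 0.17 (adjusted p = 0.765). The second chain, Ifngr2, was at 28.9 to 33.8 CPM in WT and 27.5 to 33.7 CPM in KO samples and did not share this spread (log2 fold change -0.06, adjusted p = 0.864).

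**Figure D4:**
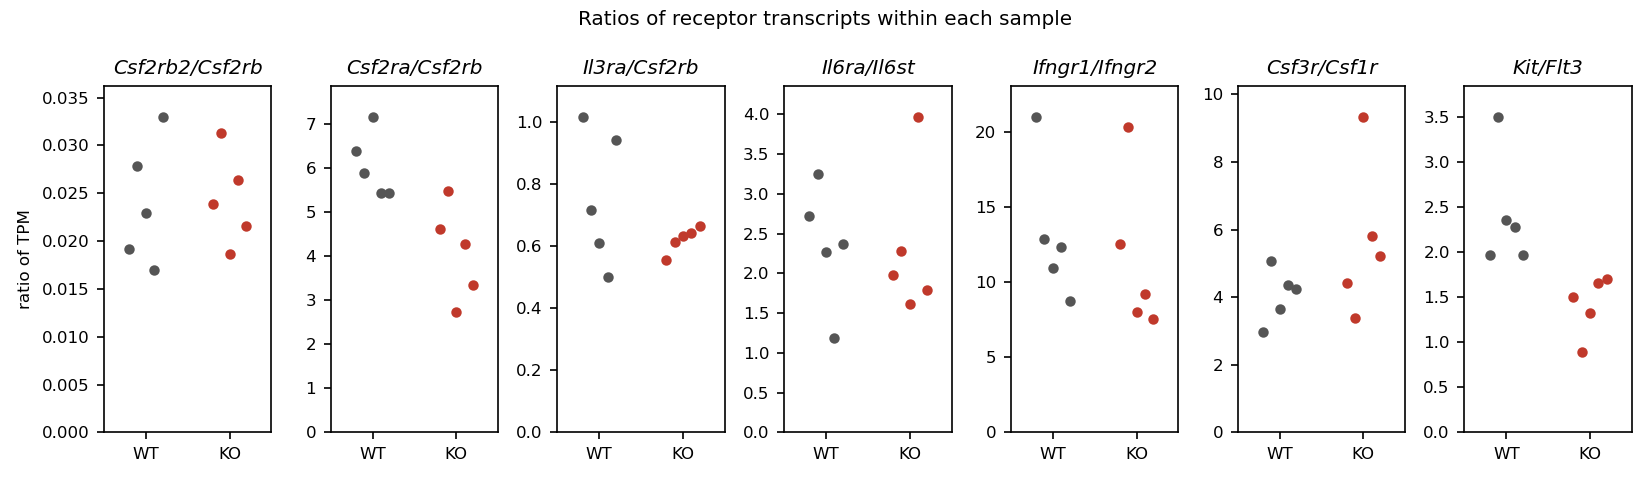
TPM ratios of receptor pairs within each sample (y axes, each from 0), for 5 WT and 5 recent Mpc2 KO samples. The groups are apart for Kit/Flt3, touch in 1 KO sample for Csf2ra/Csf2rb, and overlap for the other 5 ratios.

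The same KO samples stood at the ends for several receptors. KO replicate 2 was the highest of the KO samples and KO replicate 3 the lowest for Csf1r, Csf2ra, Il6ra, and Ifngr1. Several marker lists also had KO replicate 2 as the highest and KO replicate 3 as the lowest of the KO samples, with sums of 92362 and 54011 CPM for the GMP markers, 4062 and 1402 CPM for the monocyte progenitor markers, and 731 and 113 CPM for the neutrophil markers. Erythroid markers summed to 17.8 and 133 CPM in these samples. The order was the opposite, with KO replicate 2 lowest and KO replicate 3 highest, for 2 lists. These were the stem and multipotent markers (17.7 and 34.1 CPM) and the mast cell and basophil markers (201 and 353 CPM). The part of this in the receptors' values was not tested. Without KO replicate 2, the log2 fold changes of Csf1r and Csf2ra were -0.53 and -0.55 (adjusted p = 0.0984 for both, edgeR), and without KO replicate 3 they were -0.29 and -0.31 (adjusted p = 0.516 and 0.638). Across the 10 samples, with each group's mean taken out, the 45 pairs of receptors had a median Pearson's r of 0.18, from -0.56 to 0.90. That of Kit with Flt3 was 0.66. The highest were those of Il3ra with Flt3 (0.90), Csf1r with Csf2ra (0.87), and Csf2ra with Ifngr1 (0.82), as a description over 10 samples that share library composition. Within WT and within KO samples, r was 0.81 and 0.98 for Il3ra with Flt3 and 0.91 and 0.89 for Csf1r with Csf2ra. For Csf2ra with Ifngr1 it was 0.29 within WT and 0.97 within KO samples.

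The forms of the receptors were then compared as shares of each gene's TPM, for the 16 transcripts that held at least 5% of a receptor with more than 1 such transcript. With 5 samples against 5, a single share cannot have an adjusted p below 0.127 over the 16, so that a share could not pass alone, and none passed. Before adjustment, 3 of the 16 had an exact permutation p under 0.05: Csf2ra-201, Csf2ra-204, and Kit-208. Those of Csf2ra are shares of the same gene and thus not separate results. Csf2ra-201 held 76.5%, 80.9%, 78.8%, 83.9%, and 46.3% of Csf2ra in WT and 92.1%, 86.5%, 86.3%, 87.6%, and 90.9% in KO samples. All KO shares were above all WT shares, but the WT mean of 73.3% was pulled down by replicate 5 (exact permutation p = 0.00794, adjusted p = 0.127). Csf2ra-204, a processed transcript not annotated as coding, held 9.77% ± 2.73 in WT and 5.65% ± 1.52 in KO samples (exact permutation p = 0.0238, adjusted p = 0.190). For Kit, the form with the 12 extra bases shown above, Kit-201, took 38.3% ± 15.3 in WT and 21.9% ± 7.17 in KO samples (SD, n = 5 each; adjusted p = 0.317), and Kit-204, the form without them, 40.5% ± 11.3 and 39.1% ± 15.0 (adjusted p = 0.865). The retained-intron transcript Kit-208, which is not annotated as coding, took 16.9% ± 14.2 in WT, with 0% in replicate 4, and 37.2% ± 10.9 in KO samples (exact permutation p = 0.0397, adjusted p = 0.212). The spread of 0% to 38.8% among WT samples was wider than the difference of 20.3 percentage points between the groups. For Csf3r, Csf3r-201 held 57.2% ± 7.69 in WT and 64.4% ± 3.32 in KO samples (adjusted p = 0.381), and for Il6ra, Il6ra-201 held 86.6% ± 5.53 and 85.8% ± 2.12 (adjusted p = 0.865). Shares of Csf1r varied widely between samples. Csf1r-201 held 0% to 67.2% in WT and 0% to 50.1% in KO samples, and Csf1r-202 held 26.8% to 100% and 49.9% to 100%.

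**Figure D5:**
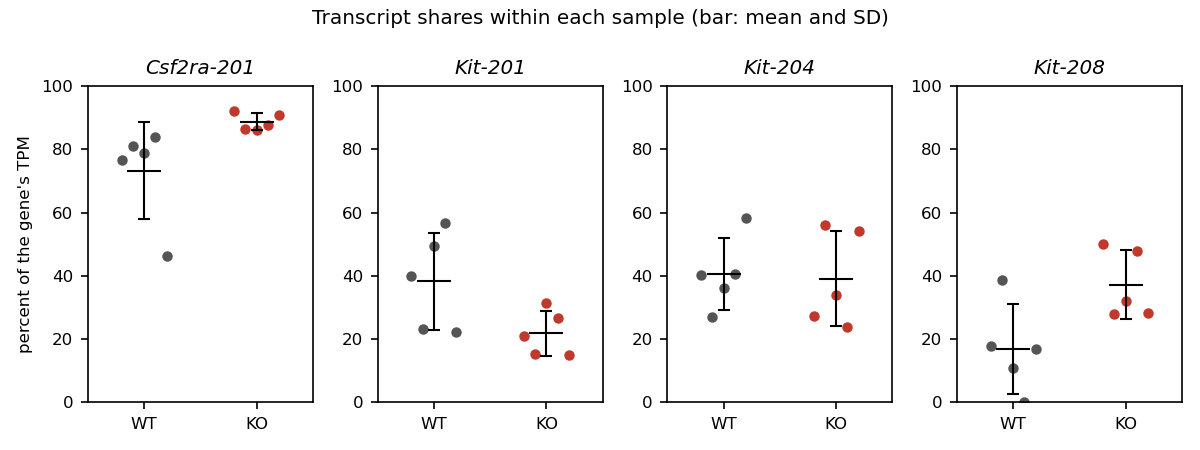
Share of the gene's TPM held by Csf2ra-201, Kit-201, Kit-204, and Kit-208 (y axis, percent) in each of 5 WT and 5 recent Mpc2 KO samples, with mean and SD. The KO shares of Csf2ra-201 (86.3% to 92.1%) lie above all WT shares, of which 1 is at 46.3%, and the groups overlap for the 3 Kit transcripts.

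No gene of the wider pathway passed the adjusted test in edgeR. Of 9 ligands, Csf2, Csf3, Il3, Kitl, and Ifng had at most 3 reads in any sample, and only Csf1 and Flt3l were tested. Csf1 was at 1.29 CPM in WT and 1.42 CPM in KO (log2 fold change 0.14, adjusted p = 0.908), and Flt3l, the ligand of Flt3, at 2.16 ± 0.215 CPM in WT and 2.08 ± 0.892 CPM in KO (SD, n = 5 each; log2 fold change -0.04, adjusted p = 0.979). Of 33 other cytokine receptors, 23 were tested and none passed with edgeR or DESeq2, while 3 of the 23 had an unadjusted p under 0.05, near the 10.2% of all genes. The smallest p-values were those of Il1rap, the accessory chain of the IL-1 receptor (8.88 CPM in WT and 6.82 CPM in KO, log2 fold change -0.38, adjusted p = 0.246), and of Il1r1, the chain that binds IL-1 (1.40 and 2.30 CPM, log2 fold change 0.71, adjusted p = 0.426).

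Of the 24 genes that transmit or restrain these signals, such as JAK kinases, STAT factors, and phosphatases, all were tested, 11 were higher and 13 lower, and none passed, while 1 of the 24, Fes, had an unadjusted p under 0.05, a lower share than the 10.2% of all genes. Fes, a cytoplasmic tyrosine kinase of myeloid cells, was at 85.4 to 111 CPM in WT and 60.8 to 92.0 CPM in KO samples (log2 fold change -0.41, SE 0.11, adjusted p = 0.176). Its adjusted p was 0.0317 with DESeq2, 0.0120 with no filter on low counts, and 0.0191 without KO replicate 2. Stat5a, which acts below the receptors for GM-CSF and IL-3, was at 25.7 CPM in WT and 29.5 CPM in KO (log2 fold change 0.20, adjusted p = 0.491). Of 17 genes that respond to these cytokines, 15 were tested, 12 were higher in the KO (6135 of all 12381 genes were higher), and none passed with edgeR or DESeq2, while 3 of the 15 had an unadjusted p under 0.05, against 10.2% of all genes. Their median log2 fold change was 0.20, compared to -0.0018 over all genes. Myc, a growth regulator, had a log2 fold change of 0.20 (254 CPM in WT and 292 CPM in KO, adjusted p = 0.328), and Bcl2l1, which encodes the survival factor Bcl-xL, one of 0.31 (7.97 and 9.86 CPM, adjusted p = 0.425).

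Of 15 transcription factors that control receptor genes, none passed the adjusted threshold in edgeR or DESeq2, and 9 had an unadjusted p under 0.05, 2 higher and 7 lower, against 10.2% of all genes. Spi1, which encodes PU.1, a factor known to act on Csf1r, Csf2ra, and Csf3r, was at 327 to 420 CPM in WT and 280.2 to 345 CPM in KO samples (log2 fold change -0.25, SE 0.08, adjusted p = 0.270). Irf8, a factor of the monocyte and dendritic branches, was at 116 to 158 CPM in WT and 53.6 to 137 CPM in KO samples (log2 fold change -0.55, SE 0.18, adjusted p = 0.302). Its adjusted p was 0.0157 with no filter on low counts. Irf8 is one of the 7 monocyte progenitor markers given above, of which 1, Cx3cr1, passed with DESeq2.

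The 250 bases before the start sites in RefSeq (GRCm38.p6) were searched for the core of the PU.1 motif, GAGGAA, on both strands. RefSeq windows were matched for 8 of the 10 receptors, and Csf1r and Csf2rb were not matched. The letters were found before 5 of the 8 (Csf2ra, Csf2rb2, Csf3r, Il6ra, and Kit) and before 23.3% of all 32851 start sites, and not before Flt3, Il3ra, or Ifngr1. Among those with a match, Csf2ra, Csf3r, and Il6ra were lower and Csf2rb2 and Kit higher in the KO. Among those without, Il3ra and Ifngr1 were lower and Flt3 higher. For Csf2rb2, Csf3r, Kit, Il3ra, and Ifngr1, the intervals given above include both directions. The signs therefore cannot show whether the matches went with the direction of the fold changes, and this was not tested. A stretch of 30 bases around each first match is shown on the gene's strand, with the motif in capitals. Csf2ra had 2 matches side by side, at bases -14 to -9 and -8 to -3, and the match lay at -86 to -81 for Csf3r, counted from the RefSeq start. By the GENCODE M21 gene positions given above, the Csf3r stretch lies inside the gene and the Csf2ra stretch partly inside it. For both, the bases are therefore not wholly before the GENCODE start.
Csf2ra, chr19:61228419-61228448, minus strand: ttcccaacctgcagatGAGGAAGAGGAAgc
Csf2rb2, chr15:78305871-78305900, minus strand: ctctgtgtctgcTTCCTCcagagaagtcag
Csf3r, chr4:126024561-126024590, plus strand: cctccttcctgaGAGGAAggggctgtctat
Il6ra, chr3:89913249-89913278, minus strand: cttcagcaccggTTCCTCaaatgtttcact
Kit, chr5:75574752-75574781, plus strand: ggagagtgctagGAGGAAgaggatccaggg
The GATA core AGATAA was found only before Il6ra (9.99% of all start sites) and the C/EBP pattern TTGCNNAA only before Il3ra (9.56%). A match is a match of letters, and neither binding nor control by a factor was measured.

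For each receptor, the tested gene with the most similar levels over the 10 samples was looked up. Csf2ra went with Pgd, an enzyme of the pentose phosphate pathway (Pearson's r 0.98 on log2 CPM), Ifngr1 with Tm7sf3 (0.98), Il3ra with Rbsn (0.98), and Csf3r with Pdcd6ip (0.98). Kit went with Strn4 (0.96), Csf1r with Themis2 (0.96), Il6ra with Fbh1 (0.95), Flt3 with Ppfibp1 (0.94), Csf2rb with Bzw1 (0.93), and Csf2rb2 with Gm12977 (0.91). None of these 10 genes passed the adjusted test, and the lowest adjusted p was 0.298, that of Themis2 (log2 fold change -0.36). With 12381 genes to choose from and 10 samples, values of this size are a description only.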

How the data were processed

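RNA-seq of 5 WT and 5 recent Mpc2 KO samples was analyzed. The authors isolated RNA with NucleoSpin RNA XS, made SMARTseq V4 libraries, which do not mark strand, sequenced paired ends on a NovaSeq, and quantified transcripts of Gencode M27 (GRCm39) with Salmon (1.5.1 per the submitters' processing notes). The deposited files hold, for every transcript, the estimated count of reads from Salmon, not normalized, and TPM, which the authors' tool scaled to transcript length and to 1 total per sample. A deposited table of the authors' own DESeq2 comparison was not used. The receptors and gene lists were chosen with earlier results of these data known.

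Transcripts were matched by Ensembl identifier to GENCODE M21 (GRCm38), from which all gene positions come; 137161 of 140789 (97.4%) matched, and the rest held 0.348% to 0.390% of reads. Estimated counts were summed per gene and rounded. edgeR 4.0.16 (R 4.3.3) was run with TMM, filterByExpr (minimum count 10), quasi-likelihood tests without covariates, and Benjamini-Hochberg adjustment over all genes tested at 0.05, after a test on simulated data. Levels are normalized CPM. For ratios and transcript shares, exact permutation tests were used, two-sided (smallest p 0.00794). Replicates were separate mice or pools, and no pair of samples was identical. Amplified reads are not independent molecules, so estimates at low counts are less certain than the counts imply.

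The alternatives tried were DESeq2 1.42.0, a replicate block, robust dispersions, an offset for transcript length, scaling by RLE, by the upper quartile, or by library size alone, no filter or a mean count minimum of 50, limma 3.58.1 on log2(TPM + 1) and log2(TPM + 0.1) for a mean TPM of at least 1, Csf2rb and Csf2rb2 summed, and leaving out each sample. Named beside the 10 receptors are Il6st, Ifngr2, the genes of each list with an adjusted p under 0.05 or else the 2 with the smallest p, and each receptor's most similar gene; other markers, and the p of Fes and Irf8 in other settings, were named after their values were seen. Sequences are from GENCODE M21 transcripts and RefSeq (GRCm38.p6); coding sequences were aligned globally with Biopython.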

Additional observations from a re-analysis of the deposited data

Results flagged for a closer look

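Of 38 groups of 5 samples examined for a sample far from the others (Dixon's test at its 95% critical value of 0.710), 3 had one, where 1.9 are due by chance. Csf2rb2 was at 1.61 CPM in recent KO replicate 2 and at 0.977 to 1.16 CPM in the other 4 KO samples, on few reads. The ratio of Il6ra to Il6st TPM was 3.96 in recent KO replicate 4 and 1.62 to 2.28 in the others. The ratio of Kit to Flt3 TPM was 3.50 in WT replicate 2, the WT sample with the least Flt3 by CPM, and 1.97 to 2.36 in the other 4 WT samples.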

How the results depend on the processing

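Without a replicate, the number of all genes passing ranged from 25 to 91 (41 with all samples), and that of receptors from 0 to 1, the 1 being Flt3. The number of all genes was 206 with no filter, 156 with DESeq2, 25 with limma on log2(TPM + 1), 24 at a pseudocount of 0.1, and 20 with the replicate block. The number of receptors was 1 (Flt3) with no filter, DESeq2, library size alone, and upper quartile normalization, and 0 in the other settings. Same-numbered samples did not deviate together (correlations of -0.18 to 0.05, 0 of 5 over 0.1, and 0 best with their own number). The labels give only a replicate number, so whether same-numbered samples shared a day or a sort is not known. With the block, Flt3 had a log2 fold change of 0.93. No ratio or transcript share passed in any alternative, but a single one could not have passed in these exact tests, so this says nothing of stability. Of the receptors' 209 values under alternatives, 200 kept direction and side of the threshold, 6 (all Flt3) crossed it, and 3 changed sign. Small values changed sign. The log2 fold change ranged without a replicate from -0.031 to 0.16 for Csf2rb, -0.049 to 0.22 for Csf2rb2, and -0.20 to 0.12 for Flt3l, and was 0.045 for Flt3l with library size alone. For Ifngr2 it was 0.011 with library size alone, and with limma 0.013 at a pseudocount of 1 and 0.016 at 0.1. The log2 ratio ranged from -0.070 to 0.17 for Csf2rb2/Csf2rb and from -0.25 to 0.11 for Il6ra/Il6st. The difference in share, in percentage points, ranged from -0.44 to 3.60 for Il3ra-203, -2.99 to 0.831 for Il6ra-201, -0.831 to 2.99 for Il6ra-202, and -5.59 to 3.12 for Kit-204, which was 1.48 by estimated reads. The causes were not tested. Csf2rb2, with 14 to 26 reads a sample, is limited by depth.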
